A study of Mus musculus with 8 samples.

Results

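The natriuretic peptide system was described here through 9 genes: the ligand genes Nppa, Nppb and Nppc, the receptor genes Npr1, Npr2 and Npr3, and the genes of the processing and degrading enzymes Corin, Furin and Mme. The genes were taken by name from a table of 55679 genes, by their place in the system and not by a threshold on their values. All 9 passed the filter on low values and were among the 19364 genes tested. Transcripts were measured by RNA-seq in the left ventricle of 8 wild-type male C57BL/6J mice. The control group (n = 4) received saline and the ANG II group (n = 4) received angiotensin II, a pressor peptide hormone, at a dose of 1500 ng/kg/min. Both were infused for 7 days from an osmotic pump under the skin, and the age of the mice was not given. Libraries were named by group and replicate number (control 1 to 4, ANG II 1 to 4), and values were in FPKM, that is, fragments relative to the length of the transcript and to the total mapped in each library.

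Natriuretic peptides are hormones that lower blood pressure by promoting salt and water excretion and vessel relaxation. Nppa encodes atrial natriuretic peptide (ANP), Nppb encodes B-type natriuretic peptide (BNP) and Nppc encodes C-type natriuretic peptide (CNP). ANP and BNP activate the receptor encoded by Npr1 and CNP the one encoded by Npr2, both of which make cyclic GMP, whereas the Npr3 receptor takes the peptides out of circulation. In the adult heart ANP is made mainly in the atria, and ventricular Nppa and Nppb are widely used as markers of myocyte stress.

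Nppa and Nppb lie side by side on chromosome 4, and the sequences before their starts are shown because these neighbouring ligand genes differed in the size of their change. The sequence before Nppc, the ligand gene on another chromosome, is shown for comparison. Each is the 250 bases before the RefSeq transcript start, 5′ to 3′ on the strand of the gene (GRCm38.p6, RefSeq). The windows are chr4:148000472-148000721 (+) for Nppa, chr4:147985650-147985899 (+) for Nppb and chr1:86670574-86670823 (-) for Nppc. The GENCODE model of Nppb starts upstream of its RefSeq start, so the end of that window, with every match marked in it, lies inside the gene as GENCODE annotates it. Capitals mark matches to the motifs searched.
Nppa: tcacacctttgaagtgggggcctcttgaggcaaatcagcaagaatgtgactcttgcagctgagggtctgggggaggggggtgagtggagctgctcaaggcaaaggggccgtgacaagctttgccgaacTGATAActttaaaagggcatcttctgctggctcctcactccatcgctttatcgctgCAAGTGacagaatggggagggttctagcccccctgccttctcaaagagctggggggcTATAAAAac
Nppb: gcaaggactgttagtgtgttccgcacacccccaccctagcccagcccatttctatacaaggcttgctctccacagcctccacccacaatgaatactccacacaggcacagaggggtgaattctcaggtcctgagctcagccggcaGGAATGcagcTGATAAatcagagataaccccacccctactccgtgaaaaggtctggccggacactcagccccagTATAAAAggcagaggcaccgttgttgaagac
Nppc: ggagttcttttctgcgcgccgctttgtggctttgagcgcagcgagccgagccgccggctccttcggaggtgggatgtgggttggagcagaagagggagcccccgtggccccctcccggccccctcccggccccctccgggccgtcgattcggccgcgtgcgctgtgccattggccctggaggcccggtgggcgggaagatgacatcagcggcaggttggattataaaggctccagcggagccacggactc
Motifs were searched on both strands: TGATAA (read by GATA factors), CATTCC (TEAD factors), TGANTCA (AP-1), CAAGTG (NKX2-5), TATAAAA (the TATA box) and the CArG box of serum response factor. TGATAA was found in the windows of Nppa, 122 to 117 bases before the start, and Nppb, 95 to 90 bases before it, and in no other window of the 9 genes. Of all 32851 promoter windows of the same length, 7.94% held it. TATAAAA was likewise found before Nppa and Nppb alone among the 9 genes, and in 4.98% of all windows. It lay at different distances, 9 to 3 bases before the start of Nppa and 31 to 25 bases before that of Nppb. CAAGTG (11.6% of all windows) was found before Nppa and Furin, and CATTCC (12.6%) before Nppb, where it reads GGAATG on the strand shown, and Mme. TGANTCA (6.75%) was found before Mme alone, and the CArG box (1.47%) before none of them. The Nppc window held none of the motifs, and its GC content was 69.2%, against 54.4% for Nppa, 54.8% for Nppb and a median of 52.4% over all windows. A match is a run of letters and not a measured binding site.

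The depth recovered from the steps of the values was 14455654 to 16564830 fragments per library. The tissue label was checked against markers, since the extraction text of the labels names CRC cells. Summed over 8 ventricular myocyte markers, the level was 47364 to 48303 FPKM in controls and 35506 to 38203 FPKM in ANG II libraries, led by the ventricular light chain Myl2 at 10947 ± 560 and 7890 ± 745 FPKM (SD, n = 4 each). Over all genes tested the median log2 fold change (ANG II minus control) was 0.15, and 2708 genes were called higher against 273 lower (90.8% higher). That split was 67.5% higher with median-of-ratios scaling, 58.9% with quantile normalization and 78.3% with a common total that leaves out mitochondrially encoded genes and the 10 most abundant genes.

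Of the 9 genes, Nppa and Nppc were higher in the ANG II group and Mme was lower, and the other 6 were not called. A gene was called when limma's Benjamini-Hochberg adjusted p, taken over all genes tested, was under 0.05 and its log2 fold change, on the log2(FPKM + 1) scale, was above 0.5 in size. By this rule 15.4% of all genes tested were called, 14% higher and 1.41% lower. The adjusted p alone was under 0.05 for 4 of the 9, Furin being the fourth, against 33.3% of all genes. The 4 control and 4 ANG II values did not overlap for 5 of the 9 genes (Nppa, Nppb, Nppc and Furin higher, Mme lower), against 33.7% of all genes (28.7% higher and 5.06% lower).

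**Figure D1:**
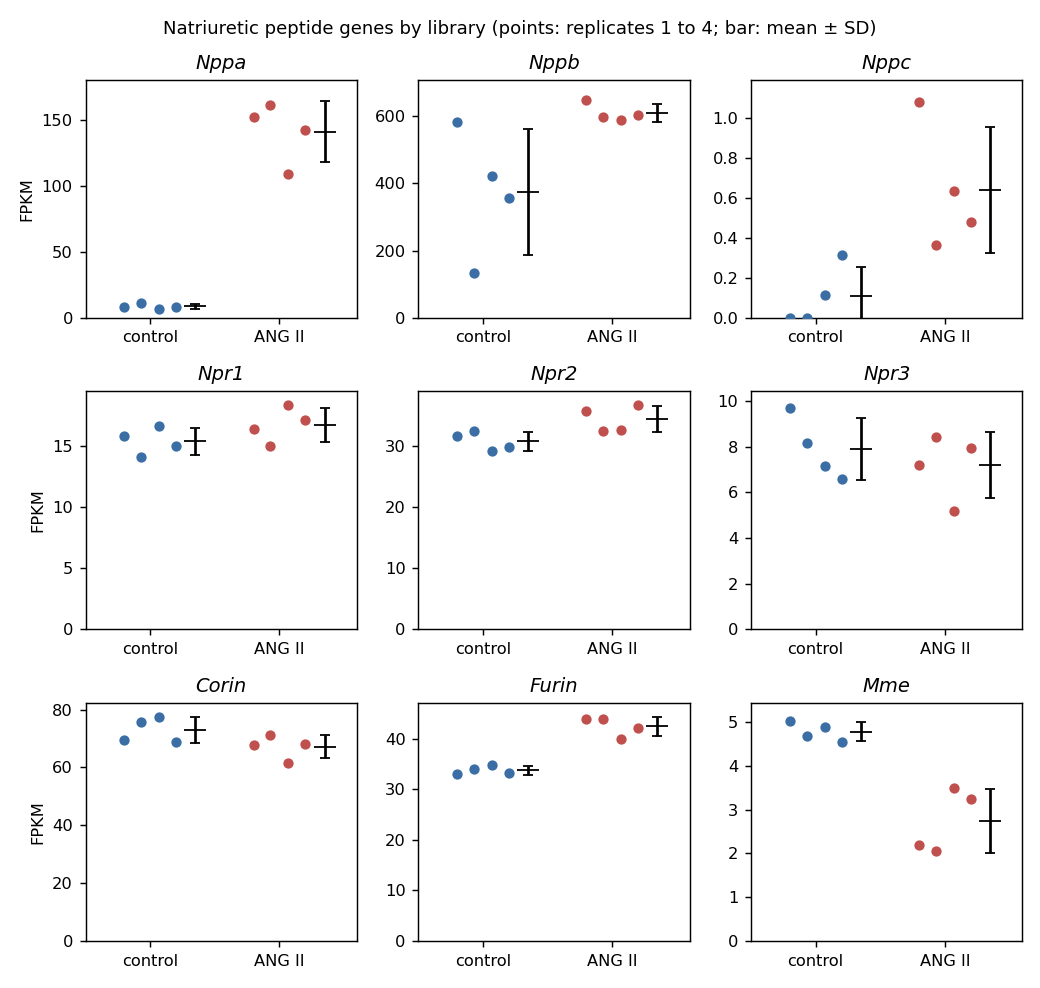
FPKM of the 9 genes in each of the 8 libraries (vertical axes, linear and separate for each gene), with control and ANG II libraries side by side, points for libraries and bars for the mean ± SD (n = 4 each; the lower SD bar of Nppc in controls is cut at 0). Nppa ran from 6.56 to 11.1 FPKM in controls and from 109 to 161 FPKM in ANG II libraries, and Mme was lower in every ANG II library than in every control.

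Nppa (ENSMUSG00000041616, GRCm38 chr4:148000722-148002079, + strand), the gene of ANP, had the largest change of the 9. The 4 controls held 8.48, 11.1, 6.56 and 8.31 FPKM. The 4 ANG II libraries held 152, 161, 109 and 142 FPKM. Every ANG II library was far above every control, and the mean went from 8.61 ± 1.86 to 141 ± 22.9 FPKM (SD, n = 4 each), a 16.4-fold ratio of means. The log2 fold change was 3.89 (SE 0.15, 95% CI 3.55 to 4.23, limma adjusted p = 1.21e-06), or 3.74 above the median of all genes. The recovered fragments were 94 to 140 per control library and 1419 to 2219 per ANG II library. The antisense gene Gm13054 covers 61.5% of the exonic length of Nppa on the other strand, and strand use in the counting was not stated. Gm13054 was listed at 0.146 ± 0.188 FPKM in controls and 0.158 ± 0.111 FPKM in ANG II libraries.

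Nppb (ENSMUSG00000029019, chr4:147985788-147987205, + strand), the gene of BNP, was the most abundant of the 9 in both groups. The controls held 584, 133, 421 and 358 FPKM. The ANG II libraries held 649, 597, 589 and 605 FPKM. The ANG II values lay close together and above every control, but control 1 came just under the lowest of them while control 2 was far below the rest. The means were 374 ± 187 and 610 ± 26.9 FPKM (SD, n = 4 each), and the log2 fold change of 0.89 (SE 0.36, 95% CI 0.075 to 1.70) missed the threshold (limma adjusted p = 0.0886). Which controls were included decided the call: without control 1 the log2 fold change was 1.16 (adjusted p = 0.0283, called), and without control 2 it was 0.45 (adjusted p = 0.0399, under the fold threshold). With limma-voom on the recovered fragments Nppb was called at 0.89 (adjusted p = 0.0378).

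Nppc (ENSMUSG00000026241, chr1:86666291-86670571, - strand), the gene of CNP, was called higher at a very low level. The controls held 0, 0, 0.116 and 0.314 FPKM, or 0, 0, 2 and 5 fragments. The ANG II libraries held 1.08, 0.361, 0.635 and 0.481 FPKM, or 17, 6, 10 and 8 fragments. All ANG II libraries were above all controls, of which only control 4 exceeded the level of 3 fragments, 0.174 to 0.199 FPKM, that a count of 0 allows (counting error only). The means were 0.107 ± 0.148 and 0.638 ± 0.313 FPKM (SD, n = 4 each), and the log2 fold change was 0.56 (SE 0.15, 95% CI 0.22 to 0.89, limma adjusted p = 0.0166), just above the fold threshold. At this level the size of the change rests on the pseudocount: the log2 fold change was 2.00 with a pseudocount of 0.1 and 2.81 by voom, and the ratio of means was 5.94. The call was lost without ANG II 1, the highest library (0.44, adjusted p = 0.0360), and with quantile normalization (0.45, adjusted p = 0.0528) or median-of-ratios scaling (0.50, adjusted p = 0.0301).

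The ligand transcripts together stood at 383 ± 186 FPKM in controls and 752 ± 42.7 FPKM in ANG II libraries (SD, n = 4 each). Nppb made up most of that sum in each library, but the share of Nppa went from 3.23% ± 3.00 (range 1.43% to 7.71%) to 18.7% ± 2.34 (15.5% to 21.2%), with no overlap. Within a library the ratio of Nppa to Nppb needs no scaling between libraries. Nppb exceeded Nppa by 68.9, 12, 64.2 and 43.1 times in the controls and by 4.28, 3.71, 5.43 and 4.25 times in the ANG II libraries. Control 2, with the lowest Nppb and the highest Nppa of the controls, lay nearest to the ANG II libraries and still apart from them. The mean log2 ratio of Nppa to Nppb was -5.28 ± 1.17 and -2.13 ± 0.23 (SD, n = 4 each), a difference of 3.15 (exact two-sided permutation p = 0.0286, the smallest that 4 against 4 allows, and 0.0571 by Benjamini-Hochberg over the 2 ratios tested).

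**Figure D2:**
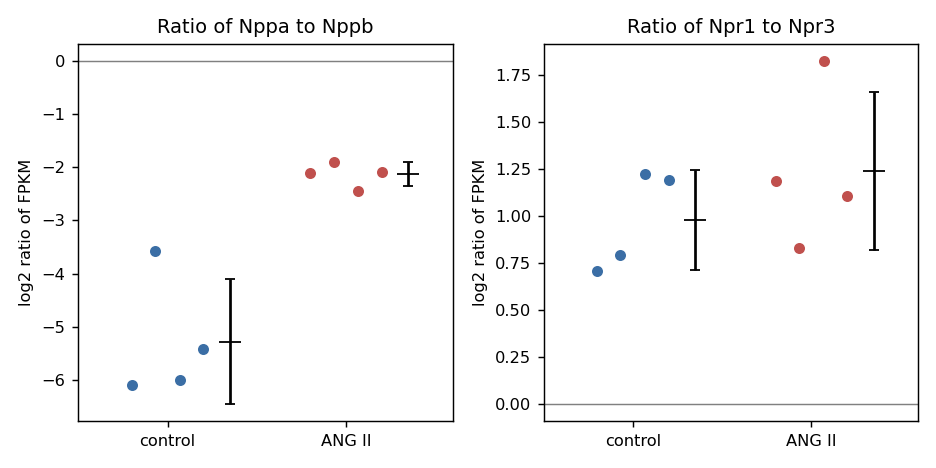
The log2 ratio of Nppa to Nppb and of Npr1 to Npr3 in each library (points, FPKM ratios), with bars for the mean ± SD of the 4 control and 4 ANG II libraries. The Nppa to Nppb ratios of the groups lie apart, at -6.11 to -3.58 and -2.44 to -1.89, and the Npr1 to Npr3 ratios overlap.

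None of the 3 receptor genes was called by limma, by voom or under another scaling, and 1 of them (Npr2) had an unadjusted p under 0.05. Npr1 (ENSMUSG00000027931, chr3:90450591-90465866, - strand), the guanylyl cyclase receptor for ANP and BNP, held 15.8, 14.1, 16.7 and 15 FPKM in controls and 16.4, 15, 18.3 and 17.1 FPKM in ANG II libraries. The groups overlapped, and the log2 fold change of 0.11 (SE 0.08, 95% CI -0.061 to 0.28, limma adjusted p = 0.305) turned negative under all 3 other scalings (-0.13 to -0.027). Npr2 (ENSMUSG00000028469, chr4:43631935-43651244, + strand), the guanylyl cyclase receptor for CNP, held 31.6, 32.4, 29.1 and 29.9 FPKM in controls and 35.7, 32.4, 32.6 and 36.7 FPKM in ANG II libraries. The lowest ANG II value met the highest control, and the log2 fold change was 0.15 (SE 0.06, 95% CI 0.017 to 0.29, limma adjusted p = 0.0804), equal to the median of all genes at this rounding and negative under median-of-ratios scaling (-0.069) and quantile normalization (-0.040). Antisense Gm16048 overlaps 11.7% of the exonic length of Npr1.

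Npr3 (ENSMUSG00000022206, chr15:11839896-11907287, - strand), the clearance receptor, held 9.70, 8.14, 7.14 and 6.57 FPKM in controls and 7.21, 8.43, 5.18 and 7.96 FPKM in ANG II libraries. The groups overlapped broadly, with ANG II 3 lowest and control 1 highest, and the log2 fold change was -0.12 (SE 0.15, 95% CI -0.46 to 0.22, limma adjusted p = 0.573). It was -0.32, -0.42 and -0.25 with median-of-ratios scaling, quantile normalization and the common total (adjusted p = 0.126, 0.0557 and 0.250). The receptor transcripts summed to 54.0 ± 2.45 FPKM in controls and 58.3 ± 2.81 FPKM in ANG II libraries (SD, n = 4 each). Npr2 made up 56.9% and 58.9% of the sum, Npr1 28.5% and 28.7%, and Npr3 14.5% and 12.3%, in that order of groups. The log2 ratio of Npr1 to Npr3, the signalling over the clearance receptor, averaged 0.98 ± 0.27 and 1.24 ± 0.42 (SD, n = 4 each). Its difference of 0.26 was within the spread of the libraries (exact two-sided permutation p = 0.371, also after Benjamini-Hochberg adjustment over the 2 ratios).

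Mme (ENSMUSG00000027820, chr3:63241537-63386030, + strand) encodes neprilysin, a membrane peptidase that degrades natriuretic peptides among other substrates, and it was the enzyme gene that fell. The controls held 5.03, 4.68, 4.89 and 4.54 FPKM and the ANG II libraries 2.19, 2.06, 3.50 and 3.25 FPKM. Every ANG II library was below every control, with ANG II 1 and 2 lower than ANG II 3 and 4. The means were 4.78 ± 0.22 and 2.75 ± 0.73 FPKM (SD, n = 4 each), and the log2 fold change was -0.65 (SE 0.14, 95% CI -0.95 to -0.34, limma adjusted p = 0.00563). In bulk tissue, fewer cells of a type and less RNA per cell cannot be told apart.

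Furin (ENSMUSG00000030530, chr7:80388585-80405436, - strand), a proprotein convertase that cleaves precursors including those of BNP and CNP, held 33.0, 34.0, 34.7 and 33.2 FPKM in controls and 43.9, 43.8, 40.0 and 42.0 FPKM in ANG II libraries. The groups lay apart with little spread in either, at means of 33.7 ± 0.815 and 42.4 ± 1.83 FPKM (SD, n = 4 each). The log2 fold change of 0.32 (SE 0.05, 95% CI 0.21 to 0.43, limma adjusted p = 8.95e-04) was under the fold threshold, stood 0.18 above the median of all genes, and was 0.10 (adjusted p = 0.208) with median-of-ratios scaling, 0.14 (adjusted p = 0.0534) with quantile normalization and 0.18 (adjusted p = 0.0227) with the common total. Corin (ENSMUSG00000005220, chr5:72300025-72504473, - strand), the transmembrane protease that turns the ANP precursor into ANP, held 69.3, 75.6, 77.6 and 68.6 FPKM in controls and 67.8, 71.2, 61.7 and 68.2 FPKM in ANG II libraries. Its groups overlapped, and the log2 fold change was -0.11 (SE 0.06, 95% CI -0.25 to 0.024, limma adjusted p = 0.189). With the 3 other scalings it lay between -0.34 and -0.26, below the fold threshold in size, with adjusted p of 0.00369 to 0.0102.

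**Figure D3:**
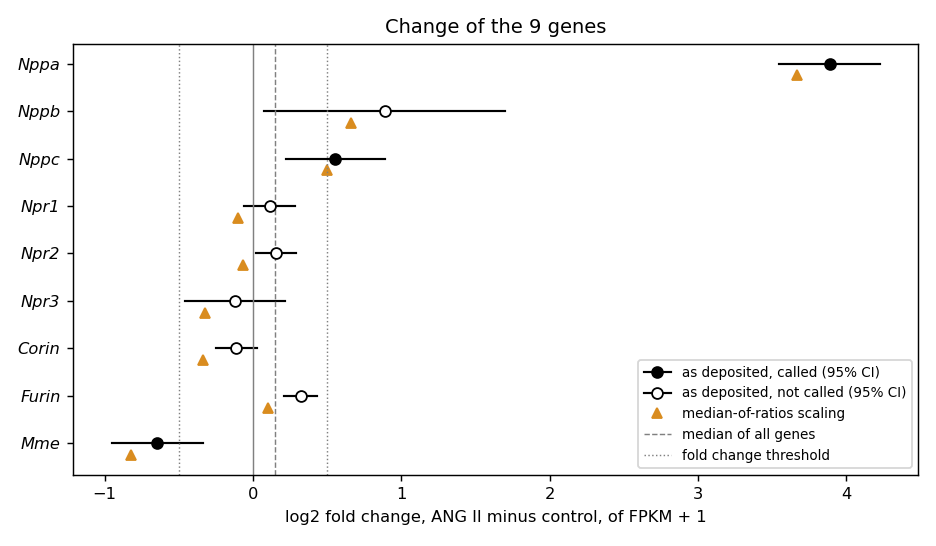
Log2 fold change (ANG II minus control, log2(FPKM + 1) scale) of the 9 genes with 95% confidence intervals from limma, filled for called and open for other genes, with triangles for median-of-ratios scaling, a dashed line at the median of all genes tested (0.15) and dotted lines at the fold threshold. The interval of Nppa (3.55 to 4.23) lies far above those of the other 8 genes, and that of Mme lies below 0.

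Ordered by mean FPKM, a scale per transcript length, the controls ran Nppb, Corin, Furin, Npr2, Npr1, Nppa, Npr3, Mme and Nppc. Of the neighbours in that order, only Nppa and Npr3 had ranges that overlapped. In the ANG II group Nppa stood next to Nppb, ahead of Corin, and the other genes kept their order. No neighbours overlapped there, Nppa at 109 to 161 FPKM lying between Nppb at 589 to 649 and Corin at 61.7 to 71.2.

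None of the tested genes around the Nppa and Nppb pair was called. Nppb starts 14.9 kb before Nppa, and 10 other genes of the table start within 100 kb of Nppa, of which 9 were tested and 0 were called (limma, log2 fold changes -0.31 to 0.29), against 15.4% of all genes. Voom also called 0 of them. An unadjusted p under 0.05 was found for 4 and an adjusted p under 0.05 for 2 of them. Mfn2, which encodes the mitochondrial fusion protein mitofusin 2, stood at 323 ± 10.3 and 261 ± 18.2 FPKM (SD, n = 4 each), and its log2 fold change of -0.31 (limma adjusted p = 0.00262) was called lower with median-of-ratios scaling (-0.54, adjusted p = 2.93e-04). Agtrap, which encodes a protein that binds the angiotensin II type 1 receptor, stood at 27.3 ± 1.22 and 33.5 ± 1.35 FPKM (0.29, limma adjusted p = 0.00284), and its log2 fold change was 0.065, 0.091 and 0.14 with median-of-ratios scaling, quantile normalization and the common total (adjusted p = 0.489, 0.271 and 0.0828). Among the other tested neighbours were Plod1, 2510039O18Rik, Gm13054, Clcn6, Chchd2-ps and Gm13201, and Gm13207 was below the filter.

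**Figure D4:**
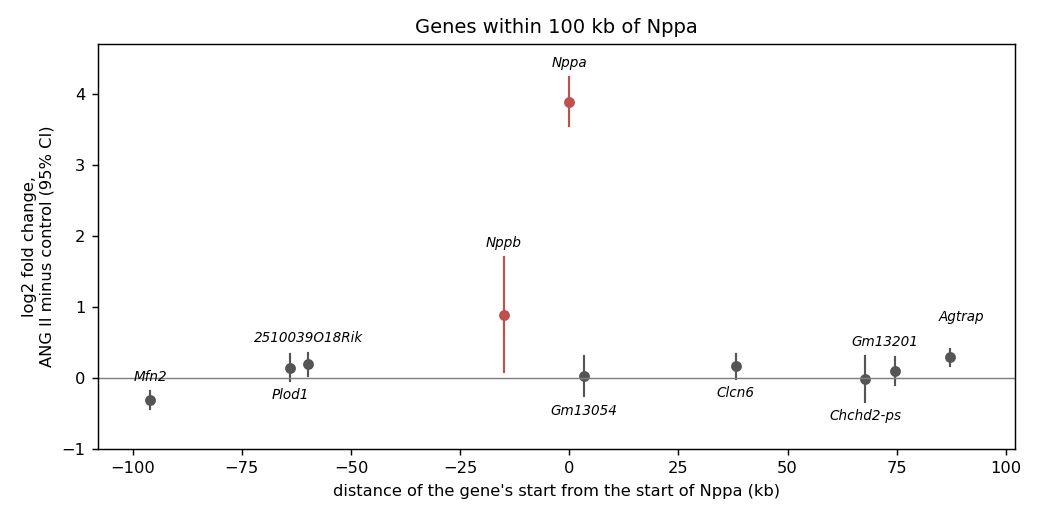
Log2 fold change (points) with 95% confidence interval (bars) of Nppa, Nppb and 8 of the 9 tested neighbours that start within 100 kb of Nppa, by the distance of their start from that of Nppa in kb. Nppa stands at 3.89 and Nppb at 0.89, and the 8 neighbours drawn lie between -0.31 and 0.29.

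Markers of atrial myocytes, the main source of ANP in the adult heart, were read beside the ligands. Of 8 atrial markers 7 were tested and 3 were called higher (Sln, Dkk3 and Mybphl), where 14% of all genes were, with a median log2 fold change of 1.69 against 0.15 over all genes. Bmp10 was below the filter. The summed level was 142 to 190 FPKM in controls and 177 to 356 FPKM in ANG II libraries, of which Kcnk3 (116 ± 4.37 and 88.4 ± 7.77 FPKM) and Stard10 (17.1 ± 2.12 and 13.8 ± 4.12 FPKM) were expressed in all libraries and not called. The calls depended on the scaling: Dkk3 was higher in all 3 other scalings, Sln with the common total only and Mybphl in none of them, while Kcnk3 was called lower in all 3 and Stard10 with median-of-ratios scaling and quantile normalization. Sln and Mybphl also lost their calls with a pseudocount of 0.1, with no filter, and without control 3, control 4, ANG II 1 or ANG II 3 (limma adjusted p up to 0.0758 and 0.115 with single libraries left out). The atrial light chain Myl7, the defining marker, held 19.8, 21.1, 0.205 and 6.76 FPKM in controls and 51.1, 28.2, 89.6 and 21.7 FPKM in ANG II libraries (log2 fold change 2.38, SE 0.85, limma adjusted p = 0.0557). Myl4, another marker of the list, stood at 15.7 ± 11.3 and 63.5 ± 45.9 FPKM (2.23, SE 0.79, limma adjusted p = 0.0557). For both genes every ANG II library was above every control, and neither was called.

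The part of atrial tissue in the change of Nppa was not tested. In the 4 controls Myl7 and Nppa had the same order, and control 3 was the lowest of all 8 libraries for both genes. In the ANG II group the order differed, ANG II 3 having the highest Myl7 and the lowest Nppa. Control 2 and ANG II 4 had nearly the same Myl7, a ratio of 1.03, and ANG II 4 had 12.8 times the Nppa of control 2. Without ANG II 3 and control 3 the log2 fold change of Nppa was 3.90 (limma adjusted p = 3.40e-06). Nppc was then no longer called (0.56, adjusted p = 0.0716).

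**Figure D5:**
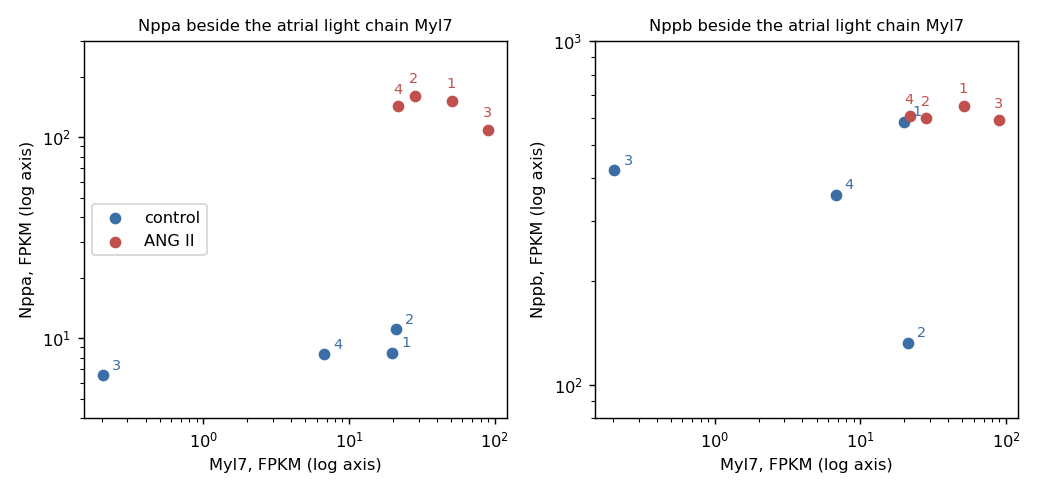
Nppa (left) and Nppb (right) against Myl7 in the 8 libraries, in FPKM on log axes, with points numbered by replicate and coloured by group. Myl7 is higher in every ANG II library (21.7 to 89.6 FPKM) than in every control (0.205 to 21.1 FPKM). The Nppa values of the groups lie apart, while Nppb of control 1 comes close to the ANG II libraries. The part of atrial tissue in these changes was not tested.

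Markers of other cells were counted beside the 9 genes, and their part in the changes of those genes was not tested. The shares to read these counts against are the 14% of all genes called higher and the 1.41% called lower. All 8 fibroblast markers were called higher (summed level 524 to 790 FPKM in controls, 3355 to 4006 FPKM in ANG II libraries), led by Postn, Col1a1 and Col1a2, with a median log2 fold change of 2.32. With median-of-ratios scaling, quantile normalization and the common total, in that order, 7, 6 and 8 of them were called higher. Of 8 ventricular myocyte markers 2 were called lower, Tnni3 and Myh6, with a median of -0.39. In the same 3 scalings 5, 1 and 4 were called lower, and with quantile normalization Myh6 stood at -0.099 (limma adjusted p = 0.357). Of 8 endothelial markers 2 were called higher, Vwf and Pecam1, with summed levels of 392 to 415 and 452 to 509 FPKM, and neither was called in any of the 3 other scalings. The median log2 fold change of that list was 0.19, close to the 0.15 of all genes. Of 5 endocardial markers Plvap was called higher (7.85 ± 1.56 and 13.8 ± 1.94 FPKM), with summed levels of 19.0 to 31.9 and 30.8 to 35.4 FPKM, and it lost its call with quantile normalization. Of 5 tested neutrophil markers 3 were called higher, S100a9, Csf3r and S100a8, with summed levels of 2.60 to 5.80 and 8.02 to 21.0 FPKM, and 3 were also called higher in each of the other scalings.

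Genes of cyclic GMP signalling were read as a list, which also holds the nitric oxide receptor guanylyl cyclase, a source of cyclic GMP parallel to the natriuretic peptide receptors. Of the 24 listed genes 22 were tested, and 6 were called higher and 0 lower, against 14% and 1.41% of all genes, with a median log2 fold change of 0.25 against 0.15 over all genes. An unadjusted p under 0.05 was found for 4 of the genes with a negative log2 fold change, and voom called 1 gene lower. Pde1a, a phosphodiesterase that breaks down cyclic nucleotides, rose from 3.45 ± 0.69 to 7.94 ± 1.33 FPKM (log2 fold change 1.01, SE 0.15, limma adjusted p = 6.84e-04). Gucy1b1, a subunit of that nitric oxide receptor, rose from 13.3 ± 1.53 to 22.4 ± 2.42 FPKM (0.71, SE 0.10, adjusted p = 4.92e-04). Vasp, a substrate of the cyclic GMP-dependent kinase, rose from 36.9 ± 2.93 to 59.6 ± 6.13 FPKM (0.68, SE 0.08, adjusted p = 2.32e-04). The direction of the list depended on the scaling: 1 gene was called higher and 3 lower with median-of-ratios scaling, 2 and 4 with quantile normalization, and 3 and 2 with the common total. Over all genes those scalings gave 1671 and 804, 1413 and 986, and 1976 and 549 calls. Gucy1b1 lost its call with median-of-ratios scaling (0.50) and quantile normalization (0.48), and Vasp with median-of-ratios scaling (0.45). The list median was 0.078, -0.034 and 0.14 in those 3 scalings.

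Of 18 other genes of peptide processing and turnover 12 were tested, and 4 were called higher and 0 lower, against 14% and 1.41% of all genes, with a median log2 fold change of 0.20 against 0.15 over all genes. By unadjusted p under 0.05 and by voom 0 were lower. Pam, which amidates peptides and is abundant in atrial secretory granules, rose from 410 ± 19.3 to 674 ± 61.7 FPKM (0.71, SE 0.07, limma adjusted p = 8.34e-05). Spint1, an inhibitor of membrane serine proteases, stood at 0.0319 ± 0.0214 and 0.689 ± 0.274 FPKM (0.70, SE 0.12, adjusted p = 0.00178). Its control mean was under 0.1 FPKM, so it passed the filter on low values only through the ANG II group and had to differ, and its call adds no support to the count of the list. St14, the membrane serine protease matriptase, stood at 0.253 ± 0.0317 and 0.963 ± 0.388 FPKM (0.63, SE 0.14, adjusted p = 0.00709), low like Spint1. At these levels the size rests on the pseudocount: with a pseudocount of 0.1 and by voom the log2 fold change was 2.53 and 3.75 for Spint1 and 1.52 and 1.77 for St14. Pam lost its call with median-of-ratios scaling (0.48) and St14 with quantile normalization (0.47). With the 3 other scalings, 2, 2 and 4 genes of the list were called higher and 0 lower.

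Of 21 genes known to act on Nppa and Nppb transcription, all tested, 1 was called higher and 1 lower, where 14% and 1.41% of all genes were, and the median log2 fold change was -0.051 against 0.15 over all genes. Nfatc4, a transcription factor that responds to calcineurin, rose from 3.22 ± 0.51 to 6.88 ± 1.41 FPKM (0.89, SE 0.14, limma adjusted p = 0.00117). Klf15, a repressor of hypertrophic genes, fell from 23.7 ± 1.92 to 15.8 ± 2.73 FPKM (-0.57, SE 0.11, adjusted p = 0.00389). The call of Klf15 was lost without ANG II 2 (-0.48). The median of this list was negative under all 3 other scalings (-0.28 to -0.20).

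The genes whose profiles over the 8 libraries were most like those of Nppa and Nppb were sought among the 12947 genes whose mean reached 1 FPKM, by the root mean square difference of centred log2(FPKM + 1) values. Nearest to Nppa were Fn1 (difference 0.18), the matrix protein fibronectin, Lox (0.20), the collagen cross-linking lysyl oxidase, and Postn (0.26), the matrix protein periostin. Their means went from 15.6 to 205, from 1.84 to 44.1 and from 33.2 to 667 FPKM. Nearest to Nppb were Tnfrsf12a (0.27), the receptor of the cytokine TWEAK, Myot (0.29), the sarcomere protein myotilin, and Gbp6 (0.30), an interferon-inducible GTPase. Since these were picked for their likeness over the same libraries, a shared low library follows from the choice: control 2 was the lowest control for each as for Nppb, at 46.0 FPKM of Tnfrsf12a against 85.5 to 104 in the other controls and at 12.1 FPKM of Myot against 24.4 to 28.8. Tnfrsf12a (log2 fold change 0.93, limma adjusted p = 0.0104) and Myot (0.86, adjusted p = 0.0194) were called, but Myot lost its call in all 3 other scalings (adjusted p = 0.0506 to 0.0786) and without ANG II 2 (adjusted p = 0.0529). Gbp6 was not called, at 10.7 ± 5.67 and 15.0 ± 4.14 FPKM with overlapping groups (0.59, limma adjusted p = 0.256).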

How the data were processed

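RNA-seq was performed on left ventricles of 4 control and 4 ANG II mice, and samples were grouped by their treatment labels. The authors deposited 1 table of FPKM values with a column per library. The study describes further samples, which were not analysed here. The submitters' processing notes name HISAT, Bowtie2 and RSEM without versions. The build, annotation and strand setting were not given in the sources used here. Positions came from GENCODE M21 (GRCm38), which held 55141 of the 55679 gene IDs, and promoter windows from RefSeq (GRCm38.p6). Overlap and 50-base word sharing with other genes were computed for each member.

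Fragments were recovered from the steps of the deposited FPKM values (99.2% to 99.3% of values under 60 fragments whole for genes with 1 exon, within 0.05), giving 14455654 to 16564830 per library. Steps depend on transcript length, and 97.1% to 97.7% were whole for genes with several transcripts. A floor of 3 fragments was used for values of 0. Floors cover counting error only.

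limma 3.58.1 (R 4.3.3; lmFit, eBayes with a variance trend) was run on log2(FPKM + 1) for the 19364 genes whose mean reached 0.1 FPKM, all 8 libraries, without covariates. P-values were two-sided and Benjamini-Hochberg adjusted over all genes tested. A call needed an adjusted p-value under 0.05 and an absolute log2 fold change above 0.5. Fold changes on this scale understate the change of low genes. The labels do not say how mice shared cages or infusion days, so p-values measure the spread between these samples. The script was tested on simulated data. The 2 ratios were compared by exact permutation over 70 allocations. Python 3.11.15 was used with matplotlib 3.10.9, scipy 1.17.1, pandas 2.3.3 and numpy 2.4.6.

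The 9 members and all gene lists were chosen with earlier results of these data known. Genes named beside the members were the 3 nearest profiles to Nppa and to Nppb, the genes within 100 kb of Nppa, up to 3 called genes per direction of each list, and the defining cell markers. 1 gene that this rule picks is not reported here singly, and counts keep it. Alternatives were a pseudocount of 0.1, no filter or 1 FPKM, 3 other scalings, a constant prior variance, replicate as a block, other fold thresholds and each library left out. After the data were seen, limma-voom on recovered fragments and a fit without ANG II 3 and control 3 were added.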

Additional observations from a re-analysis of the deposited data

How the results depend on the processing

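Nppa kept its direction and its call under every alternative run, and Mme under all but a threshold of 1 on the absolute log2 fold change, where 1 of the 9 genes (Nppa) was called instead of 3. Otherwise 2 to 4 were called, also when single libraries were left out (2 to 4). The calls of Nppb and Nppc depended on the setting, as described with their values. The log2 ratio of Nppa to Nppb differed by 2.88 to 3.72 with single libraries left out and by 3.01 without ANG II 3 and control 3, with exact permutation p = 0.0571 and p = 0.1, the smallest those sizes allow. With a pseudocount of 1 the difference was 3.00 (exact p = 0.0286).

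Replicate numbers showed no pairing of the samples: deviations of same-numbered libraries correlated at -0.032 to 0.062, and 1 of 4 controls correlated best with its own number. With so few libraries this check cannot exclude shared cages or infusion days, which the labels do not give. With the replicate block 3 of the 9 genes and 2968 of all genes were called, against 3 and 2981 without it. The paired difference of the Nppa to Nppb ratio was 3.15 (exact p = 0.125, the smallest that 4 pairs allow), and the block changed no call among the 9 genes.

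Directions turned for genes near 0. With median-of-ratios scaling, quantile normalization and the common total, in that order, the log2 fold change of Npr1 was -0.10, -0.13 and -0.027 and that of Plod1 was -0.082, -0.026 and -0.0013. With the first 2 of these it was -0.069 and -0.040 for Npr2, -0.038 and -0.15 for Clcn6, -0.025 and -0.049 for 2510039O18Rik, and -0.0035 and -0.040 for Gm13054. With single libraries left out the range was -0.20 to 0.0066 for Npr3, -0.038 to 0.13 for Gm13054 and -0.091 to 0.070 for Chchd2-ps, and without ANG II 3 and control 3 it was -0.042 for Gm13054 and 0.072 for Chchd2-ps. The causes were not tested. A total of 7 and 41 fragments limits what can be said of Nppc.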
